A study of Mus musculus with 2 samples.

Results

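The genes of 5 families of developmental signals, Wnt, TGF-beta, Hedgehog, Notch and FGF, were examined for H3K9bhb, the β-hydroxybutyrylation of lysine 9 of histone H3, in mouse CD8+ T cells. Members were the protein-coding genes of the RefSeq annotation of mm10 whose symbols carry the names of these families (Wnt and Fzd; Bmp, Bmpr, Tgfb, Tgfbr, Acvr, Smad and Pmepa1; Ptch, Smo and Gli; Notch, Jag, Dll, Hes and Hey; Fgf and Fgfr, each followed by its number or letter). This gave 120 of 21896 genes: 29 of the Wnt family, 39 of TGF-beta, 6 of Hedgehog, 18 of Notch and 28 of FGF. A member has a peak here when the highest summit of a called peak falls within the gene or no more than 5 kb beyond either end.

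The series holds 2 libraries, 1 H3K9bhb ChIP and 1 input DNA, both from OT-I splenocytes on a C57BL/6 background. OT-I cells carry a transgenic T cell receptor for an ovalbumin peptide. They were stimulated for 3 days with that peptide (200 ng/ml) and interleukin-2 (10 ng/ml), kept for a further 4 days in interleukin-15 (10 ng/ml), which programs them as memory cells in culture, and given β-hydroxybutyrate for 3 days. The labels give 70 M paired-end reads of 150 bp per experiment, and the values analysed are the 2204 peaks called from the ChIP library, so that no untreated culture and no replicate stands beside any value. None (0) of 9 T cell marker genes (Cd3e, Cd8a and others) had a peak, nor did any of 4 B cell, 4 myeloid and 2 NK cell markers. Of all protein-coding genes 11.4% had one by the 5 kb rule, so lists this short could hold none. The peak list does not by itself identify the cell type.

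Wnt proteins bind Frizzled receptors and stabilise β-catenin. TGF-beta and BMP proteins bind receptor kinases that phosphorylate Smad proteins. Hedgehog proteins relieve the block that Patched places on Smoothened and so activate Gli factors. Notch receptors are cleaved after binding Delta-like or Jagged ligands on a neighbouring cell and then switch on Hes and Hey repressors, and FGF ligands activate receptor tyrosine kinases. In T cells, TGF-beta restrains activation and shapes tissue-resident memory, Notch takes part in lineage commitment and effector differentiation, and the Wnt-linked factors TCF1 and LEF1 are tied to stem-like memory.

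Members of each family had a peak, and the order of the families changed with the counting rule. In all, 26 of 120 members (21.7%, exact 95% interval 14.7 to 30.1) had a peak, beside a background of 11.4% of all protein-coding genes. By family the counts were 8 of 29 for Wnt (27.6%, interval 12.7 to 47.2), 9 of 39 for TGF-beta (23.1%, 11.1 to 39.3), 5 of 18 for Notch (27.8%, 9.695 to 53.5), 1 of 6 for Hedgehog (16.7%) and 3 of 28 for FGF (10.7%, interval 2.27 to 28.2). The FGF share was near the background, the intervals of the 5 families overlapped, and the background lay inside each of them but that of Wnt. Counting summits within 2 kb of a gene end, the shares were 27.8% for Notch, 23.1% for TGF-beta, 20.7% for Wnt, 7.14% for FGF and 0% (0 of 6) for Hedgehog, beside a background of 9.39%. Differences between families were not tested. All intervals cover counting error only and treat genes as independent.

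By role, 10 of 55 ligands (18.2%, interval 9.08 to 30.9), 6 of 35 receptors (17.1%, 6.56 to 33.7) and 6 of 21 intracellular effectors (28.6%, 11.3 to 52.2) had a peak. Receptors and effectors together had 12 of 56 (21.4%), and the intervals of the 3 roles overlapped and each held the background of 11.4%. A further 4 of 9 genes had a peak that share a family name without being ligand, receptor or effector (Bmp2k, Tgfbrap1, Fgf11 and Fgf13); without these genes the share was 22 of 111 (19.8%). In the Wnt family a peak was called at 7 of 19 ligands (36.8%) and 1 of 10 Frizzled receptors. Their median gene lengths were 22906 and 4593 bp. In the TGF-beta family a peak was called at 1 of 13 ligands, 3 of 13 receptors and 3 of 9 effectors. The median lengths of these were 22299, 89156 and 61034 bp. Within 2 kb of a gene end the Wnt counts were 5 of 19 and 1 of 10, and the TGF-beta counts were unchanged. Whether the role mattered differently in the 2 families was not tested, and neither was the part of gene length. Among FGF genes 1 of 18 ligands and none (0) of 5 receptors had a peak, and with 5 genes the exact interval reached up to 52.2%.

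**Figure D1:**
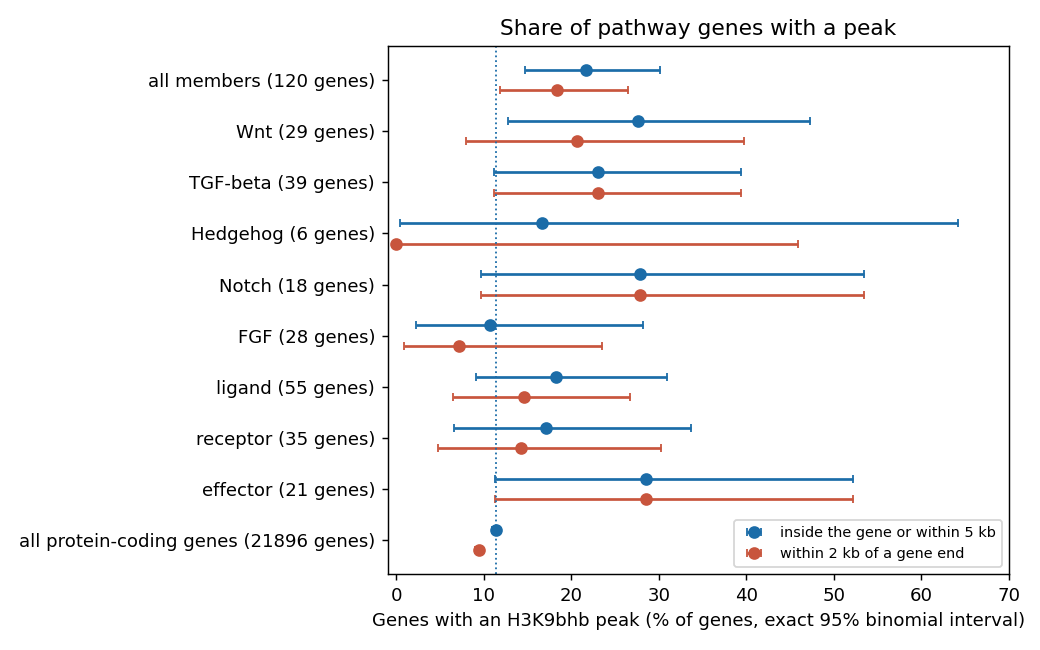
Percent of genes with an H3K9bhb peak (horizontal axis) for all members, each family, each role and all protein-coding genes, with exact 95% binomial intervals; blue counts summits inside the gene or within 5 kb, red those within 2 kb of a gene end, and the dotted line is the 11.4% of all protein-coding genes. The FGF point lies at the line, and the intervals of the families overlap.

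Longer genes offer more room for a summit, and the members were longer than other genes, with a median of 23582 bp against 17149 bp for all protein-coding genes. Counting only summits within 2 kb of a gene end, 22 of 120 members (18.3%, interval 11.9 to 26.4) had a peak, beside a background of 9.39%. This count went with length too: over all genes it was 3.60% in the shortest of 4 length classes of equal size and 14.5% in the longest. By the 5 kb rule in the same classes, from short to long, 1 of 20 members had a peak in the shortest class, 9 of 29 (31.0%) in the next, 3 of 27 (11.1%) in the one after and 13 of 44 (29.5%) in the longest, against 4.202%, 9.99%, 13.4% and 17.9% of all genes. Narrower rules lowered both sides: with summits inside the gene alone 21 members had a peak (background 8.64%), with each peak given to the nearest gene end 24 (background 9.22%), and with the 50% of peaks that scored highest 13 (background 5.76%). With those peaks Wnt had 6 of 29 members (20.7%), while TGF-beta had 2 of 39 (5.13%) and receptors 2 of 35 (5.71%), no higher than that background.

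The RefSeq promoter table used here gives a strand and a promoter sequence (250 bases before to 50 after the transcription start, GRCm38.p6, the assembly of mm10) for 86 of the 120 members and 21 of the 26 with a peak. For 7 members a summit lay inside such a window. The windows of 4 of them, a receptor each of Notch and TGF-beta, a Wnt ligand and an FGF homologue, are shown because they hold the called position itself. Capitals are the 21 bases centred on the summit.

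Notch2 (chr3:98013288-98013587, + strand): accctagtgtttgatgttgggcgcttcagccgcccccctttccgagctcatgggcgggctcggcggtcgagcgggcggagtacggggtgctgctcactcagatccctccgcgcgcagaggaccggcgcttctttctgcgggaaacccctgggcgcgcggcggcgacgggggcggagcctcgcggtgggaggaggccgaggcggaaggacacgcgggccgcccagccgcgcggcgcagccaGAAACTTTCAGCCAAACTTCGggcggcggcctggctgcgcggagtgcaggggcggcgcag
Tgfbr1 (chr4:47352972-47353271, + strand): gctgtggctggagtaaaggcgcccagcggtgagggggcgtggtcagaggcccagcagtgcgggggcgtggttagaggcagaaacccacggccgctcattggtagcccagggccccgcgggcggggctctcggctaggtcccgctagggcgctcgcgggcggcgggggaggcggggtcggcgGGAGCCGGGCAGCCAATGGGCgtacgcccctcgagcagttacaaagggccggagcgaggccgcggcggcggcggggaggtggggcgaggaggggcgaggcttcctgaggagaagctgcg
Wnt2b (chr3:104961660-104961959, - strand): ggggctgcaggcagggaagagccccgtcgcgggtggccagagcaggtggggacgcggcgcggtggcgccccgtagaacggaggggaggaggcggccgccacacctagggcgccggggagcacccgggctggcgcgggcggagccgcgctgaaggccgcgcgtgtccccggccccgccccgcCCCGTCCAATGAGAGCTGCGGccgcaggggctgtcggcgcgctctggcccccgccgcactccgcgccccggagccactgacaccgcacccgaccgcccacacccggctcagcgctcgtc
Fgf13, an internal start (chrX:59567299-59567598, - strand): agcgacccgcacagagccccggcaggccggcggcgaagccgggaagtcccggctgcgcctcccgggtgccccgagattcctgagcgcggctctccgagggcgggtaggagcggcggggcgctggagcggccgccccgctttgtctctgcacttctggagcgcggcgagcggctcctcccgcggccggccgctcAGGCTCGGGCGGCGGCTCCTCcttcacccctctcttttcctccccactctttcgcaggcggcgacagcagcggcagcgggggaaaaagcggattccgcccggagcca

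Each of these windows is rich in G and C. The GC share was 73.0% in the Notch2 window, 74.7% in Tgfbr1, 79.7% in Wnt2b and 74.3% in Fgf13, with 41, 34, 43 and 40 CpG dinucleotides in 300 bases. The median over the outermost promoter of all genes was 56.3% GC and 13 CpG. It was 65.0% and 25 CpG for all genes with a peak, and 65.7% and 24 CpG for members without a peak. The Notch2 summit fell on the annotated start itself, those of Tgfbr1 and Wnt2b 59 bp before it and that of Fgf13 47 bp before an internal start. The capitals of both Tgfbr1 and Wnt2b hold CCAAT, the NFY box; on either strand this motif occurs in 39.2% of all promoters of the same length, so a match is common. The other 3 windows with a summit were those of Hey2, Tgfbrap1 and Bmp2k.

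The 12 motifs searched on both strands included the recognition letters of the nuclear factors of 4 families, for TCF/LEF CTTTGAT (Wnt), for SMAD GTCTAGAC, for GLI GACCACCCA and for RBPJ CGTGGGAA (Notch). The promoters of 3 members with a peak held the motif of their own family, and they are printed for that reason, with the matches in capitals.

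Hey2 (chr10:30842734-30843033, - strand): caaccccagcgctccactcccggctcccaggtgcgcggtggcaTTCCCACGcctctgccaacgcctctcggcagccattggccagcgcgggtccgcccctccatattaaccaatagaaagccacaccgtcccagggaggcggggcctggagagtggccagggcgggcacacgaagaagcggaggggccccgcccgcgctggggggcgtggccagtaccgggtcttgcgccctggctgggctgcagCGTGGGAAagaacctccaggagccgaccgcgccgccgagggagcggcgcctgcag
Smad6 (chr9:64022010-64022309, - strand): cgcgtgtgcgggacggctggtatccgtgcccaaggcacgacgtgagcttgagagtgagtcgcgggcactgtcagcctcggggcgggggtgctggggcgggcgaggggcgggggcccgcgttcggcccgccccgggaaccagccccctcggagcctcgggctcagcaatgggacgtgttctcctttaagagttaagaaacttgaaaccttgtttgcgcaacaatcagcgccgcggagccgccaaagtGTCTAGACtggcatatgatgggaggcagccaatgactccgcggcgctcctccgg
Wnt11 (chr7:98834862-98835161, + strand): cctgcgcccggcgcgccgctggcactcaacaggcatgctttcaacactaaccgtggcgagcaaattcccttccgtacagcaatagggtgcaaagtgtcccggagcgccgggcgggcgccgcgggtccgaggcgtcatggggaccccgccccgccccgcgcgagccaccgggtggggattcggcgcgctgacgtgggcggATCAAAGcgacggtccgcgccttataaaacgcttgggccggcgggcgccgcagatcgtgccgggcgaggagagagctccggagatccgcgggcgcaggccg

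Hey2, a repressor induced by Notch, had RBPJ letters that began 207 and 5 bp before its start. Smad6, an inhibitor of BMP signalling that Smad proteins themselves induce, had the palindromic SMAD letters from 4 bp before the start. Wnt11 had a TCF/LEF match on the reverse strand 51 bp before the start and a TATA box (TATAAA) at 29 bp. Of all 17491 promoters, 0.898% held the RBPJ letters, 0.212% the SMAD letters and 3.28% the TCF/LEF letters, and 1 of 65 promoters of members without a peak held the TCF/LEF letters too. No member promoter (0 of 86) held the GLI letters, which were in only 0.177% of all promoters. The other motifs searched were ETS (CCGGAAG), NRF1 (GCATGCGC), SP (GGGGCGGGG), FOXO (GTAAACA), the E-box (CACGTG) and CREB (TGACGTCA), and matches of different motifs could overlap. The SP letters were in 9 of 21 promoters of members with a peak (42.9%) and 24 of 65 of members without one (36.9%), against 15.5% of all promoters. The NFY letters were in 11 of 21 (52.4%) and 22 of 65 (33.85%). Over all genes with and without a peak, the SP letters were in 28.15% and 13.85%, and the NFY letters in 35.24% and 39.71%. The ETS, E-box, FOXO and CREB letters were each in 0 of 21 promoters of members with a peak, and in 4, 10, 1 and 0 of the 65 of members without one, against 11.9%, 7.91%, 2.93% and 2.33% of all promoters. For all genes with a peak these shares were 15.65%, 11.42%, 2.66% and 3.10%. For all genes without one they were 11.42%, 7.45%, 2.97% and 2.23%. The NRF1 letters were in 1 of 21 and 5 of 65, against 3.60% of all promoters, and the TATA letters in 1 of 21 and 6 of 65, against 13.3%. Differences between these sets were not tested. These are matches of letters and show no binding.

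Wnt ligands, the secreted signals of the pathway, held 7 of the 8 Wnt family peaks. Wnt8b (chromosome 19, 44493472 to 44514273) had the highest score among the ligands, 9.18, with its summit at 44511894. The score is the authors' −log10 p or q at the summit, and 11.03% of all peaks reached or passed that of Wnt8b. This summit lay 18422 bp past the start and 2379 bp before the transcript end, so it was not a promoter peak. Wnt10a (chromosome 1, 74792019 to 74804176) scored 9.12, with a summit 853 bp inside its higher-coordinate end. Wnt10b (chromosome 15, 98770712 to 98778206), which inhibits fat cell formation, scored 6.63 with a summit 1643 bp past its start.

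Among the other ligand peaks, those of Wnt11, Wnt2b and Wnt5b were closer to a start. Wnt11 (chromosome 7, 98835084 to 98854747), a ligand of the non-canonical branch, scored 5.63 with a summit 108 bp past the start. Wnt2b scored 5.52 at 59 bp before it. Wnt5b (chromosome 6, 119432531 to 119544824) scored 5.04 with a summit 574 bp past the start, and an end of the predicted gene Gm52875 lay as near, at 574 bp. Wnt7b (chromosome 15, 85535437 to 85581821) scored 3.17 with a summit 4132 bp inside the gene. The Wnt ligands without a peak numbered 12.

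Fzd5 (chromosome 1, 64730558 to 64737750), a Frizzled receptor of Wnt proteins, had the highest score of all members, 11.8, reached or passed by 4.17% of all peaks. Its summit at 64737675 lay 75 bp past the start. The other 9 Frizzled genes had no peak. Among Wnt pathway genes outside the naming rule, 7 of 48 had a peak (14.6%), near the 11.4% of all genes. They included Csnk1a1 (9.12), a kinase that primes β-catenin for destruction, and Ctnnb1, β-catenin itself, with peaks of 7.01 and 4.26 at 41 bp before and 845 bp past a start. Pygo2 (5.24) and Tcf7l2 (4.22), nuclear partners of β-catenin, and Axin2 (4.22 and 2.77), a scaffold of the destruction complex and a classic Wnt target, followed. By listed role, 3 of 11 genes of transcription, 2 of 7 transducers, 1 of 8 of the destruction complex and 1 of 5 coreceptors had a peak. None (0) of the 4 genes of receptor turnover, the 10 secreted inhibitors and agonists and the 3 of ligand secretion had one.

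**Figure D2:**
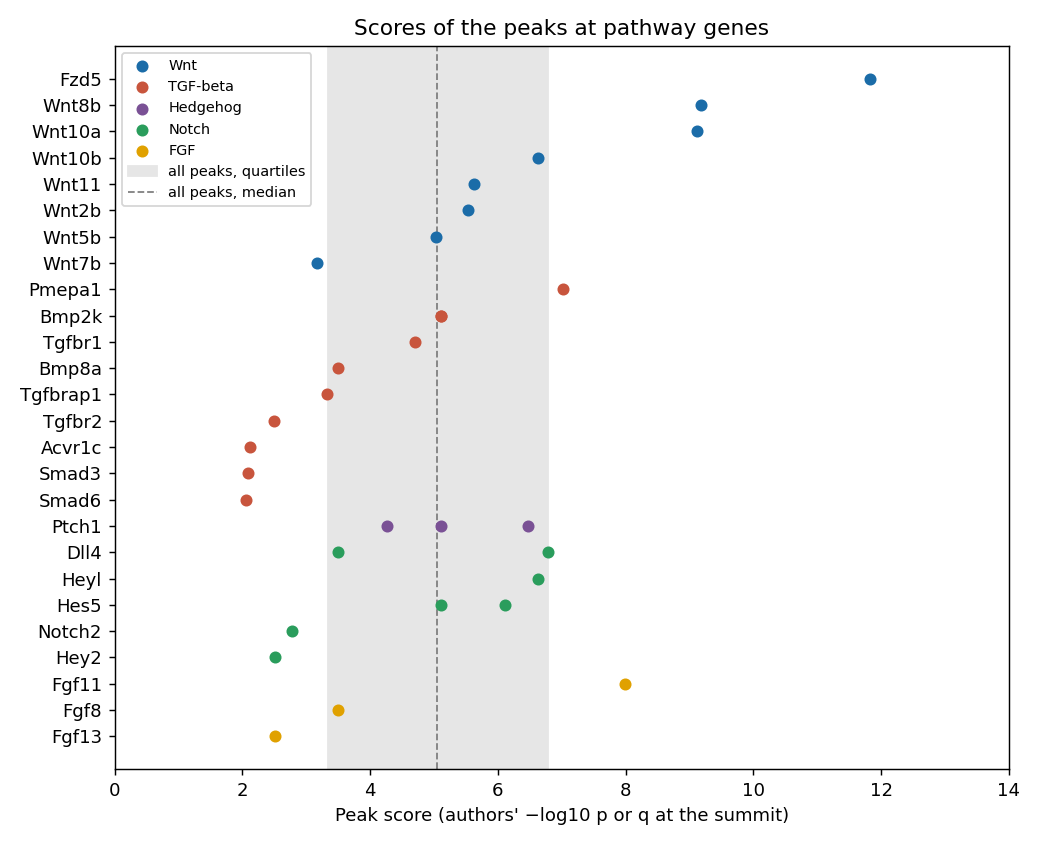
Peak score (horizontal axis, the authors' −log10 p or q at the summit) of each peak at each member with a peak, coloured by family, with the quartiles (grey band, 3.33 to 6.78) and median (dashed line) of all 2204 peaks. Fzd5, Wnt8b and Wnt10a have the 3 highest scores, right of the band, and Smad6, Smad3 and Acvr1c the 3 lowest, left of it.

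TGF-beta family peaks lay at receptors, Smads and a few other members, and most were of low score. The type I and type II receptors of TGF-beta itself, Tgfbr1 and Tgfbr2, both had one. Tgfbr1 (chromosome 4, 47353222 to 47414926) scored 4.70, with a summit at 47353163. Tgfbr2 (chromosome 9, 116087695 to 116175363) had a summit 265 bp past the start and scored 2.49, which 92.2% of all peaks reached or passed. Acvr1c (chromosome 2, 58267453 to 58357896), the activin and nodal receptor ALK7, scored 2.12 at 52 bp past the start. The 3 TGF-beta ligands proper and the 3 BMP receptors had no peak (0), and of 10 BMP ligands Bmp8a (chromosome 4, 123312645 to 123343252) had one, scoring 3.50 at 756 bp past the start.

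Of the Smads, Smad3 and Smad6 had a peak. Smad3 (chromosome 9, 63646766 to 63757994), a transducer of TGF-beta and activin receptors, scored 2.08 at 182 bp past the start, and Smad6 (chromosome 9, 63953076 to 64022085) scored 2.06 at 187 bp. These were the weakest peaks of all members, with scores that 98.5% and 99.1% of all peaks reached or passed. Pmepa1 (chromosome 2, 173224458 to 173276731), a TGF-beta-induced protein that sequesters Smads, scored 7.02, the highest of the family, with a summit 95 bp inside its higher-coordinate end. The median TGF-beta family score was 3.41 over 10 peaks, that of the Wnt family 6.13 over 8 peaks and that of all peaks 5.04.

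Bmp2k and Tgfbrap1 match the naming rule without being pathway components in the narrow sense. Bmp2k (chromosome 5, 96997672 to 97091048), a kinase named for its induction by BMP2, had peaks on either side of its start, at 195 bp before (score 5.11) and 265 bp past it (5.12). Tgfbrap1 (chromosome 1, 43047200 to 43098712), a vesicle-tethering protein that associates with TGF-beta receptors, scored 3.33 with a summit 205 bp before its start, and a start of the neighbouring gene AI597479 lay 123 bp from the same summit.

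Outside the naming rule, 11 of 47 listed TGF-beta pathway genes had a peak (23.4%, interval 12.3 to 38.0), against 11.4% of all genes. Ski, a Smad corepressor, scored 10.97 with a summit 813 bp before its start. Zfyve16 (7.89), an endosomal adaptor, and Nog (5.98), the BMP antagonist noggin, had summits 141 and 315 bp from a gene end. Lefty1, a nodal antagonist, was counted for a summit (7.89) that lay 4166 bp away and 281 bp from an end of Tmem63a. Ltbp3, which scored 5.52, stores latent TGF-beta in the matrix. By listed role, a peak was called at 4 of 8 genes for ligand traps and storage (Nog, Ltbp3, Ltbp1 and Lrrc32), with an interval of 15.7 to 84.3%. It was called at 2 of 6 transducers, 2 of 9 genes of transcription, 1 of 6 of turnover, 2 of 14 ligands and 0 of 4 receptors. Differences between these roles were not tested.

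Notch family peaks lay at the Hes and Hey repressors, at 1 receptor and at 1 ligand. Hes5 (chromosome 4, 154960626 to 154962372) had a peak of 6.11 with its summit 735 bp past the start and another of 5.11 beyond its transcript end, 338 bp from an end of Pank4. Heyl (chromosome 4, 123233556 to 123249870) scored 6.63 with a summit 132 bp inside its lower-coordinate end. Hey2 (chromosome 10, 30832359 to 30842783) scored 2.51 at 53 bp before the start. Thus 3 of 9 Hes and Hey genes had a peak (33.3%, interval 7.49 to 70.1), and the interval held the background of 11.4%.

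Notch2 (chromosome 3, 98013538 to 98150367) scored 2.77 and was the 1 of 4 Notch receptors with a peak. Dll4 (chromosome 2, 119325784 to 119335666), a Delta-like ligand, had a peak of 3.50 at 489 bp past its start, 76 bp from a start of the long non-coding RNA Gm14207, and a stronger one of 6.78 that lay 2459 bp beyond its transcript end. The Jagged ligands had none (0 of 2). Among 40 other Notch pathway genes 4 had a peak (10.0%), near the 11.4% of all genes: Dtx4 (6.33), a ubiquitin ligase of Notch, Psen2 (6.01), a catalytic subunit of γ-secretase, Maml3 (3.17), a coactivator, and Fbxw7 (2.51), which marks Notch for destruction. None of the listed genes of glycosylation (0 of 5), ligand endocytosis (0 of 3) or further ligands (0 of 3) had one.

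Ptch1 was the 1 Hedgehog member with a peak, and it had 3 in a row. Ptch1 (chromosome 13, 63508328 to 63573460), the Hedgehog receptor and itself a target of Gli factors, had a peak of 6.46 with its summit at 63565510, 225 bp past a RefSeq start. It was flanked by a peak of 5.12 at 2205 bp before that start and one of 4.26 at 2427 bp past it. The 3 summits lay 5520 to 10152 bp inside the outer end of the gene, so none (0) of the 6 Hedgehog members counted at gene ends. Smo, which carries the signal on from Ptch1, and the Gli factors had no peak. Of 20 other Hedgehog genes 4 had one (20.0%, interval 5.73 to 43.7, which held the 11.4% of all genes). They were Csnk1a1, Kif7 (4.26), a cilium kinesin that regulates Gli, Shh (3.66), the sonic hedgehog ligand, and Gpr161 (2.51), with a summit closer to Tiprl.

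FGF family peaks were 3. Fgf8 (chromosome 19, 45736491 to 45742941), a secreted ligand of embryonic patterning, scored 3.50 with a summit 557 bp inside its lower-coordinate end. Fgf11 and Fgf13 are intracellular homologues that are not secreted and bind voltage-gated sodium channels. The Fgf11 summit (score 7.996) lay 1694 bp before the Fgf11 start and 379 bp from an end of Tmem102, so Fgf11 was counted by proximity. The Fgf13 peak (2.51) was at the internal start printed above, 18177 bp from the outermost one. Further, 7 of 36 other FGF pathway genes had a peak (19.4%, interval 8.19 to 36.0, which held the 11.4% of all genes). Among them were the cytoplasmic transducers Shc1 (5.24, nearer to Pygo2), Frs2 (4.29), Plcg1 (4.09) and Crkl, which other receptors share. Cbl (6.78), a ubiquitin ligase that ends receptor signalling, scored highest.

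**Figure D3:**
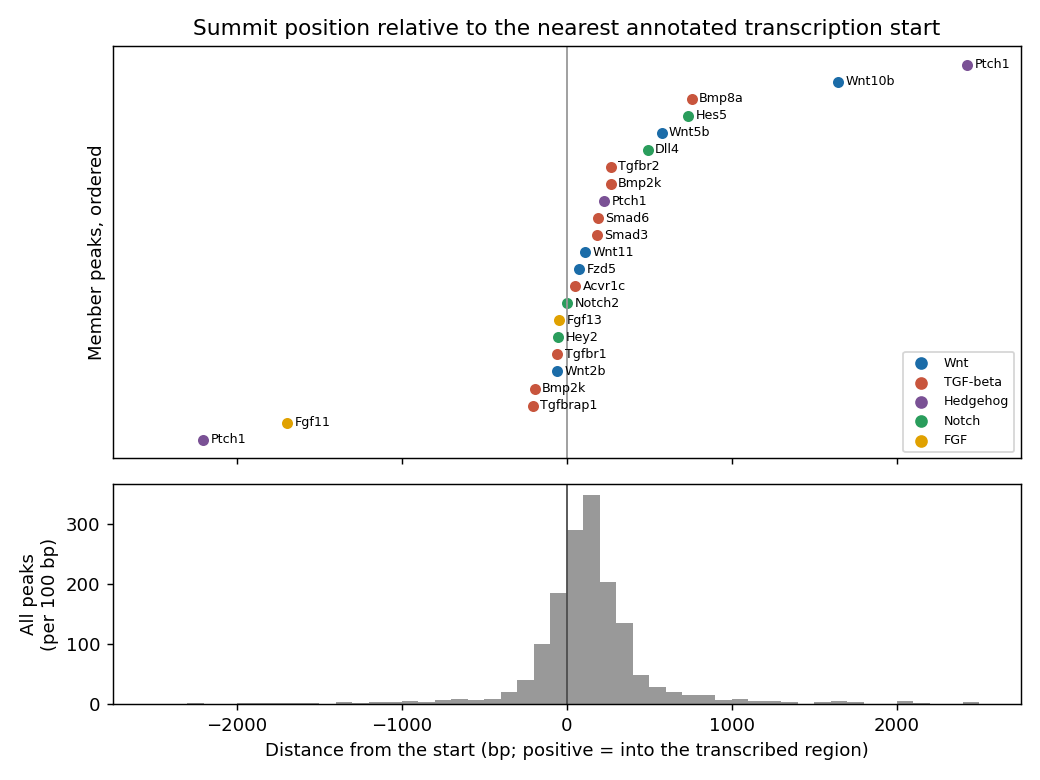
Upper panel: summit position in bp from the nearest annotated start of the same gene (negative before, positive past the start) for member peaks within 2500 bp, 1 point per peak, coloured by family. Lower panel: all peaks in bins of 100 bp, from the nearest protein-coding start. Of 26 member peaks with an annotated start, 16 lie within 500 bp of it, and Ptch1 has a peak on either side at over 2 kb.

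Member peaks were placed from the starts of their own gene and all peaks from the nearest protein-coding start, so both sets of positions are given without a comparison. Of 26 member peaks at genes with an annotated start, 21 (80.8%) lay within 2 kb of a start of the same gene, at a median of 108 bp past it, with quartiles of -53 and 265 bp. For all 2139 nuclear peaks that could be placed, 1560 (72.9%) lay within 2 kb of a start, at a median of 123 bp past it and quartiles of -11 and 246 bp. Among 86 members with a strand, 18 (20.9%) had a summit within 2 kb of the outer start and 1 (1.16%) within 2 kb of the transcript end. That gene was Hes5, which is 1747 bp long, so the summit inside it was counted at both ends. Among 17491 genes these shares were 9.07% and 0.823%, and 42 of the 144 genes counted at the transcript end were counted at the start too. By the rule of a summit within 2 kb of any annotated start, 20 of 86 members had a peak (23.3%), beside a background of 9.58%.

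The 31 member peaks ranged from 2.06 to 11.8 with a median of 5.11 and quartiles of 3.25 and 6.55, and the 2173 other peaks had a median of 5.04 and quartiles of 3.34 and 6.78. At or above the median of all peaks were 16 of the 31. Of the 26 members with a peak, 4 (Bmp2k, Dll4, Hes5 and Ptch1) had several (15.4%), against 123 of 2488 genes (4.94%). This rests on 4 genes and was not tested. The second peaks of Dll4 and Hes5 lay outside the gene, 2459 and 2089 bp beyond its end, and that of Hes5 was nearer to Pank4. A Bmp2k peak lay 178 bp outside that gene.

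The promoters of the members were rich in CpG whether or not a peak was called. CpG observed over expected had a median of 0.833 in 21 members with a peak and 0.744 in 65 members without one, against 0.820 in all genes with a peak and 0.513 in all genes without one. A promoter was called CpG-rich when this ratio was at least 0.6 and GC at least 50%, limits chosen after the values were seen. This held for 59 of 86 members (68.6%) and for 45.8% of all genes. Among genes with a CpG-rich promoter, 15 of 59 members had a peak (25.4%, interval 14.98 to 38.4), beside a background of 20.2%. That interval held the background of 20.2%.

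Among genes with other promoters, 6 of 27 members had a peak (22.2%, interval 8.62 to 42.3), beside a background of 4.40%, which lay below the interval. Differences between members and all genes in either class were not tested. The 6 were Bmp8a, Dll4, Fgf11, Fgf13, Wnt10b and Wnt8b. The class was set by the outermost annotated start, and some of these peaks lay elsewhere. The summit of Wnt8b lay 18422 bp past that start, of Fgf13 18177 bp past it and of Fgf11 1694 bp before it. The Dll4 ratio, 0.595, was just under the limit of 0.6, and that of Tgfbr2, counted as CpG-rich with a peak, was just above it at 0.627. With summits within 2 kb of any annotated start, Fgf13 at its internal one, 5 of 27 members (18.5%) and 2.62% of all genes were counted. Of 11 FGF members with a CpG-rich outermost promoter none (0) had a peak, and the exact interval reached up to 28.5%. The internal Fgf13 window that held its summit did meet both limits, with 74.3% GC and a ratio of 0.966. With a CpG-rich outermost promoter, 7 of 19 TGF-beta members (36.8%), 4 of 18 Wnt members (22.2%) and 3 of 8 Notch members (37.5%) had a peak.

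**Figure D4:**
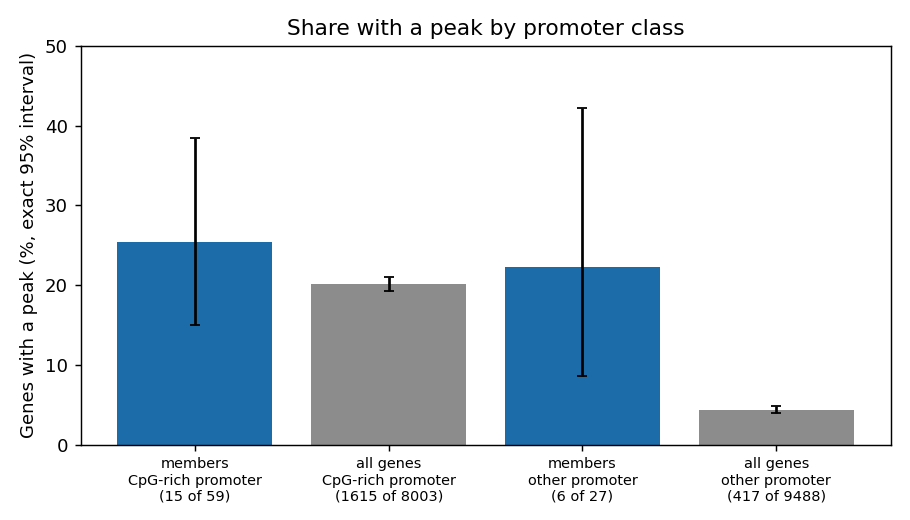
Percent of genes with a peak (vertical axis, bars from 0, with exact 95% binomial intervals) for members (blue) and all genes (grey), split by promoter class. The class is that of the outermost annotated promoter, and a counted peak need not lie there. With a CpG-rich promoter 25.4% of members and 20.2% of all genes had a peak; with other promoters the shares were 22.2% and 4.40%.

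Some members lie close together. Of 16 pairs of neighbouring members within 500 kb of each other, 2 had a peak at both genes (Heyl and Bmp8a on chromosome 4, Smad3 and Smad6 on chromosome 9), 5 at 1 gene and 9 at neither; other neighbouring genes were not counted in this way. Wnt10a had a peak while Wnt6, 6.70 kb away, had its nearest summit at 18001 bp. Wnt10b likewise had one while Wnt1, 11.7 kb away, had its nearest summit at 13.4 kb. The cluster of Fgf3, Fgf4 and Fgf15 on chromosome 7 had none.

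The 94 members without a peak were at a median of 299.9 kb from the nearest summit, against 288.8 kb for the 19408 protein-coding genes without one. Just outside the 5 kb limit were Hes3 (5515 bp), Smo (7372 bp), Tgfb1i1 (8458 bp), Tgfbr3l (9176 bp) and Fgf2 (10350 bp). Each of these summits lay nearer to an end of another gene: Icmt, Ahcyl2, 9130023H24Rik, Map2k7 and Nudt6. Of the members counted, Fgf11 was the farthest from its nearest summit, at 1030 bp outside the gene, so no member lay close to the limit on the inner side.

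**Figure D5:**
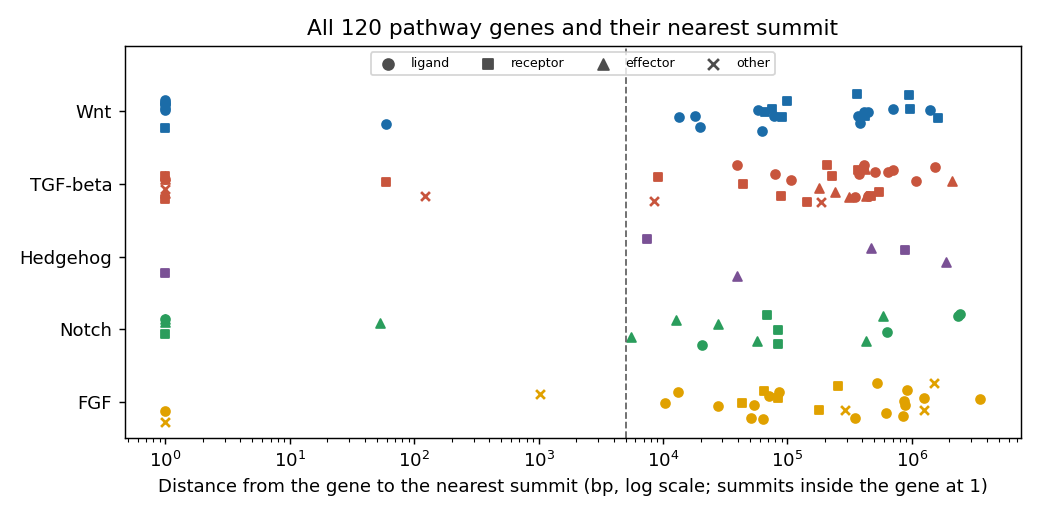
Distance from each of the 120 members to the nearest summit (horizontal log axis in bp; genes with a summit inside are drawn at 1), by family, with marks for role and a dashed line at the 5 kb limit. Counted genes lie at or below 1030 bp, and the others begin at 5515 bp.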

How the data were processed

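The data are 1 peak list of an H3K9bhb ChIP library; the input library has no values here. The submitters' processing notes name build mm10, MACS2 2.1.2, Bowtie2 2.3.5, Trimmomatic 0.39 and FastQC 0.11.8; the caller's settings, its use of the input and any filters are not stated there. At each of 2315 summits of 2204 peaks the authors deposited a −log10 value, of p or of q, which is not stated, and no read counts, so the depth behind a peak is unknown. Each peak was represented by its highest summit and set against RefSeq genes and promoters (GRCm38.p6).

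With 1 library there is no test: shares carry exact (Clopper-Pearson) 95% intervals, and the share of all 21896 protein-coding genes is the background. Roles, motifs and the 189 other pathway genes came from fixed lists. Members and lists were chosen with earlier results of these data known. Every member with a peak is named, with the 5 nearest misses and up to 5 other genes per pathway by score, apart from Crkl, Ltbp1 and Lrrc32, named after their values were seen; some genes are not reported here. Promoter composition used the outermost annotated start. Counting was tested on simulated data: 200 of 200 seeded genes were found, and 2189 of 2189 recounts were equal. Python 3.11.15, pandas 2.3.3 and scipy 1.17.1 were used.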

Additional observations from a re-analysis of the deposited data

How the results depend on the processing

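With the 50% of peaks that had the highest scores, 13 of 120 members had a peak (10.8%, background 5.76%), by family 6 of Wnt (20.7%), 2 of TGF-beta (5.13%), 3 of Notch (16.7%) and 1 of FGF (3.57%), and by role 6 ligands (10.9%), 2 receptors (5.71%) and 3 effectors (14.3%). The TGF-beta, FGF and receptor shares were then below the background. Of 189 other pathway genes 32 had a peak by the 5 kb rule with all peaks (16.9%, background 11.4%). With the 50% of peaks that scored highest 13 did (6.88%, background 5.76%). By pathway these were 3 of 48 for Wnt (6.25%), 5 of 47 for TGF-beta (10.6%) and 1 of 20 for Hedgehog (5.0%). For Notch there were 2 of 40 (5.0%) and for FGF 3 of 36 (8.33%). Csnk1a1 was counted for both Wnt and Hedgehog. With fewer peaks used, counts could only fall or stay. Among members the TGF-beta count fell from 9 to 2 and the Wnt count from 8 to 6. By transcription starts alone, 5 of 21 Wnt members and 6 of 41 ligands had a peak, since Fgf8, Wnt10a and Wnt7b have no start in the table and the Wnt8b peak was not at its start. The Hedgehog count was 2 with 10 kb flanks (Smo added) and 0 at gene ends. FGF had 1 of 23 without the symbol matches that are not pathway components. With 10 kb flanks 30 members had a peak (background 13.0%), inside genes alone 21 (background 8.64%), and counting each peak for the gene with the nearest end 24 (background 9.22%; Fgf11 and Wnt5b lost). Of 109 values compared, 91, some of them named here, stayed within 1.5 times those reported, and 18 did not. No paired analysis was possible because there is 1 ChIP library. Peaks without read counts set no depth limit.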
